A study of Mus musculus with 12 samples.

Results

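The genes described here encode 6 proteins that form MHC class II molecules, help to load peptides onto them or switch their genes on: H2-Aa, H2-Ab1, H2-Eb1, H2-DMa, Cd74 and Ciita. They were listed by name, with earlier results of these data known, and read from array probe sets annotated to 1 of these symbols alone. Each had 1 such probe set, and all 6 passed the filter on low values, so they are 6 of the 14944 genes tested and of the 19938 genes measured. H2-Aa (probe set 10450154), H2-Ab1 (10444291), H2-Eb1 (10444298) and H2-DMa (10444229) lie on mouse chromosome 17. Ciita (10433507) lies on chromosome 16 and Cd74 (10456005) on chromosome 18.

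MHC class II molecules carry peptides from engulfed proteins to the cell surface, where helper T cells read them. H2-Aa and H2-Ab1 encode the α and β chains of the I-A molecule, and H2-Eb1 encodes the β chain of I-E. Cd74, the invariant chain, holds the new α and β pair together and blocks its groove until endosomal proteases cut it away, and H2-DMa is a subunit of the exchange factor that swaps the last invariant chain fragment for a peptide. Ciita encodes the coactivator that the class II genes and Cd74 need for transcription; it does not bind DNA itself but is held at the promoter by factors on short elements called X and Y boxes. Macrophages, dendritic cells and B cells carry most class II protein, while smooth muscle cells of a healthy vessel wall carry little.

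The study measured RNA of the mouse ascending aorta at 6 weeks of age on 12 Affymetrix whole-transcript arrays. All mice carried 2 floxed Tgfbr2 alleles, which encode the type II TGF-β receptor, and Myh11-CreERT2, a recombinase that tamoxifen activates in smooth muscle cells. Receptor disruption was induced with tamoxifen, 1 mg a day into the abdomen for 5 days from 4 weeks of age, and the controls received corn oil vehicle. Each treatment was given to mice with wild-type Fbn1 and to mice heterozygous for Fbn1C1039G, a mutant fibrillin-1 allele used as a model of Marfan syndrome, which gave 4 groups of 3 arrays. They are called wild-type controls, wild-type knockouts, mutant controls and mutant knockouts below. Tamoxifen itself and loss of the receptor cannot be told apart in this design, since no mice without Cre or without floxed alleles were compared. Nothing in the labels says that the 3 arrays of a group came from separate animals, so the p-values reflect how far these 3 samples scatter, which may be technical scatter only.

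The median intensity of an array was between 300.9 and 334, and no 2 arrays held the same values. The Tgfbr2 probe set did not show the disruption: it was 11.96, 11.96 and 11.94 (log2 intensity) in the wild-type controls against 11.88, 11.95 and 11.79 in the wild-type knockouts, and 12.04, 11.98 and 11.95 in the mutant controls against 12.05, 12.07 and 11.98 in the mutant knockouts. The differences were -0.08 (exact two-sided permutation p = 0.2) and 0.04 (exact p = 0.3), where 3 arrays against 3 cannot give a p under 0.1. The part of Tgfbr2 that the probes cover is not known here, and the other cells of the wall keep the gene, so the knockout groups are named by their labels only. Those labels also conflict: the descriptions of arrays 2 and 3 of both knockout groups name Tgfbr3 and Tgfbr4 as the gene knocked out, while the titles of all knockout arrays name Tgfbr2, which is followed here. The labelled tissue was checked with smooth muscle markers: all 8 were above the filter, and smooth muscle actin Acta2 was between 14.53 and 14.60 on all 12 arrays. Because the aorta was measured as bulk tissue, fewer cells of a type and less RNA per cell cannot be told apart in any value below.

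Of the 6 genes, promoters of H2-Aa, H2-Eb1 and H2-DMa were read from the RefSeq table used (assembly GRCm38.p6). The table held none for H2-Ab1 or Ciita, and Cd74 was left out of the search. The 250 bases before the annotated start are shown for the class II chain genes H2-Aa and H2-Eb1, because Ciita acts through elements in this stretch and both genes changed with the knockout. Capitals mark the letters searched for.
H2-Aa, minus strand, chr17:34287824-34288073: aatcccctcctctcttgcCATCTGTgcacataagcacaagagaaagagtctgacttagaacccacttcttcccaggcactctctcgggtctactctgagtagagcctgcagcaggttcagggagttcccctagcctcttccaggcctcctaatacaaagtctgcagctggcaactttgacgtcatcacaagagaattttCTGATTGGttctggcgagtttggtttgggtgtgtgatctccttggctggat
H2-Eb1, plus strand, chr17:34305617-34305866: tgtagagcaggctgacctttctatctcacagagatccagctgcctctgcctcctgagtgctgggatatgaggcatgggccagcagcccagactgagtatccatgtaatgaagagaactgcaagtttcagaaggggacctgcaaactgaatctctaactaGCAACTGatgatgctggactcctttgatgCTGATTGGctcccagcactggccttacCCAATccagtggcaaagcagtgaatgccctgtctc

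Both windows hold the Y box letters CTGATTGG on the gene's own strand, 51 to 44 bases before the start in H2-Aa and 62 to 55 bases before it in H2-Eb1. These letters, searched on both strands, occur in 3.83% of 32851 promoter windows of the same length. H2-Eb1 also holds GCAACNG, letters from an X box, 91 to 85 bases before the start (10.2% of windows), and a second copy of ATTGG, the core of the Y box, on the opposite strand 35 to 31 bases before the start. Since CTGATTGG contains ATTGG, every window with the longer word counts among the 33.9% of windows that hold the shorter one. H2-Aa does not hold the exact word GCAACNG, but it holds gcaactt ahead of its Y box letters, which departs from that word in the last letter. It also holds ACAGATG, another word taken from X boxes, on the opposite strand 232 to 226 bases before the start (4.15% of windows). Whether any of these letters act as an X box was not tested. H2-DMa has 2 annotated starts: the window of one held none of the 4 words, and that of the other held ATTGG alone, 198 to 194 bases before the start.

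The first comparison sets the wild-type knockouts against the wild-type controls, where fibrillin-1 was normal. H2-Aa, H2-Ab1, H2-Eb1, H2-DMa and Cd74 rose in the wild-type knockouts, by 1.56- to 2.11-fold, and Ciita, their coactivator, did not pass the test. Over all genes tested, 9.17% rose and 9.66% fell by the same rule (limma with Benjamini-Hochberg adjusted p under 0.05), against 5 that rose and none that fell of these 6. The median difference of the 6 genes was 0.85 on the log2 scale and that of all genes tested was -0.01.

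The chains of the class II molecules showed the widest gap between groups. H2-Ab1 was 10.14, 10.41 and 10.04 in the wild-type controls and 11.21, 11.09 and 11.52 in the wild-type knockouts (log2 intensity). The groups did not overlap, and the difference was 1.08 ± 0.17 (log2, SE; n = 3 and 3), a 2.11-fold rise with limma adjusted p = 0.000802. Its partner H2-Aa was 10.21, 10.22 and 9.93 in the controls and 11.04, 10.84 and 11.47 in the knockouts. The 3 knockout arrays were all above the 3 controls, and the difference was 1.00 ± 0.19 (SE, 1.99-fold, limma adjusted p = 0.00347). H2-Eb1, the I-E β chain, was 9.98, 10.06 and 9.79 in the controls and 10.75, 10.66 and 10.92 in the knockouts. These groups too were apart, with a difference of 0.84 ± 0.13 (SE, 1.79-fold, limma adjusted p = 0.000697).

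The genes that act on the molecule before it reaches the surface moved the same way. Cd74 was 11.09, 11.39 and 10.97 in the wild-type controls against 11.90, 11.84 and 12.28 in the knockouts. Every knockout array was above every control, and the difference was 0.85 ± 0.16 (log2, SE), 1.81-fold with limma adjusted p = 0.00343. H2-DMa, the exchange factor subunit, was 8.78, 8.92 and 8.62 in the controls and 9.23, 9.39 and 9.64 in the knockouts. Its groups did not overlap either, and it rose by 0.64 ± 0.13 (SE), 1.56-fold with limma adjusted p = 0.0049.

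Ciita stood lower on its own probe set's scale, near the filter of log2 7.31, and its values were close together. It was 7.81, 7.75 and 7.82 in the wild-type controls and 7.94, 7.94 and 7.96 in the wild-type knockouts. The 3 knockout arrays were above the 3 controls, but the difference of 0.15 ± 0.07 (SE, 95% interval 0.01 to 0.29, 1.11-fold) missed the threshold with limma adjusted p = 0.135 (unadjusted p = 0.0404). Groups that do not overlap, with the knockouts higher, were seen for all 6 genes here and for 16.2% of all genes tested.

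**Figure D1:**
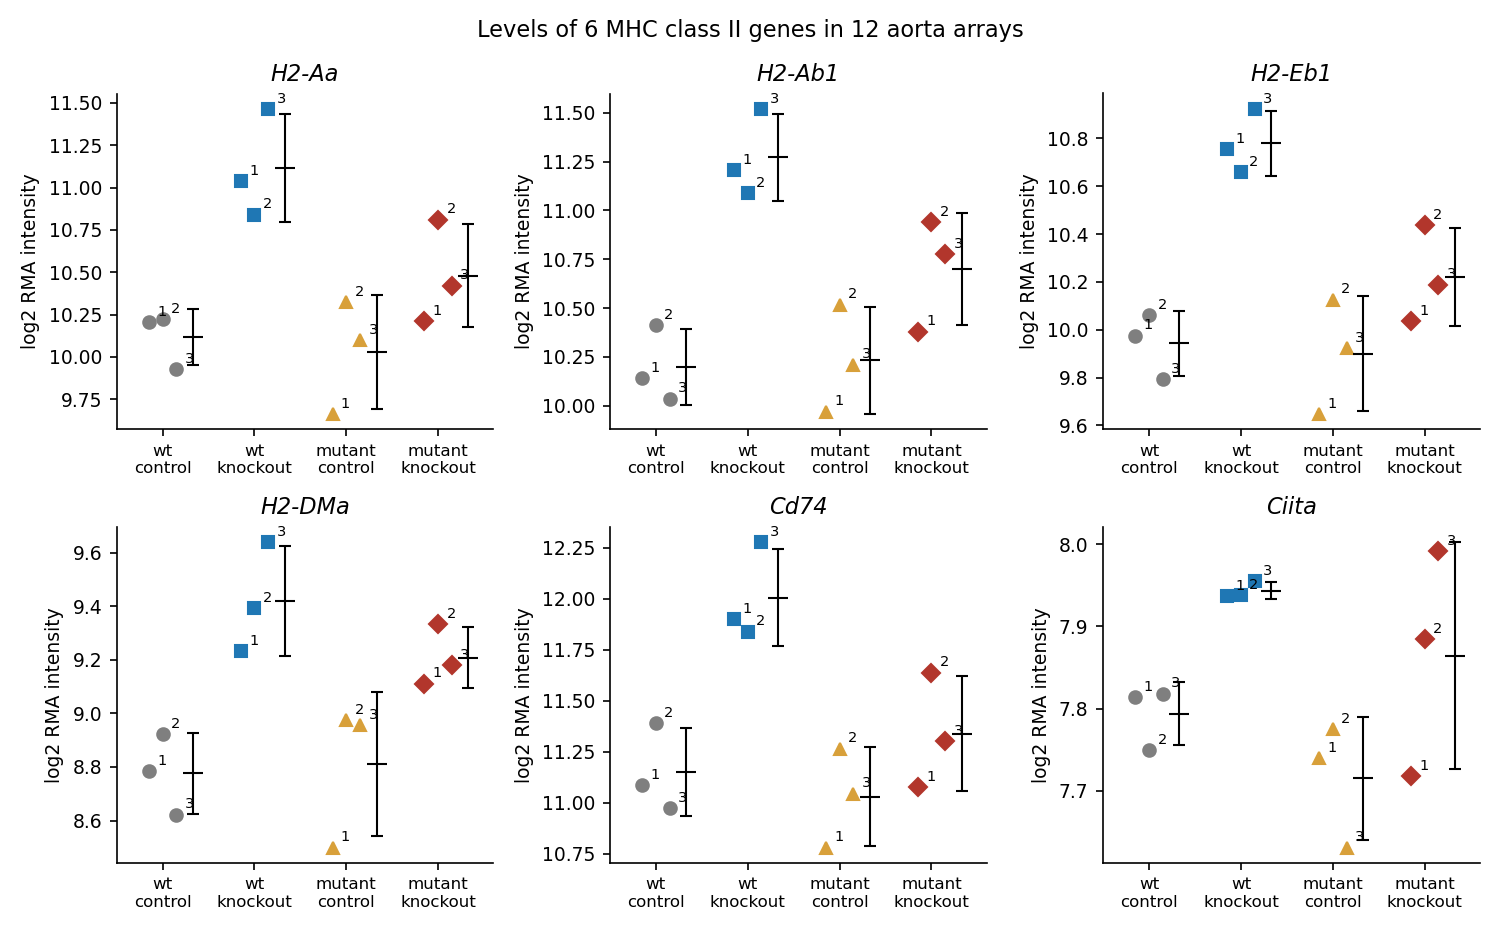
Log2 intensity of the 6 genes on each of the 12 arrays, 1 panel a gene with its own vertical scale; points are arrays, coloured by group, and bars are group means with SD (n = 3). In the wild-type knockouts every array lies above every wild-type control in each panel, while in the mutant the groups are apart only for H2-DMa.

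The second comparison sets the mutant knockouts against the mutant controls, and no gene of the 6 passed the test there. All 6 means were higher in the mutant knockouts than in the mutant controls, by 1.11- to 1.38-fold. By the same rule 7.66% of all genes tested rose and 5.77% fell. The median difference was 0.36 for the 6 genes and 0.03 for all genes.

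H2-Ab1 was 9.97, 10.52 and 10.21 in the mutant controls and 10.38, 10.94 and 10.78 in the mutant knockouts. The lowest knockout array lay below the highest control, and the difference was 0.47 ± 0.17 (SE, 1.38-fold, limma adjusted p = 0.0794). H2-Aa was 9.66, 10.32 and 10.10 in the controls and 10.21, 10.81 and 10.42 in the knockouts, which overlap in the same way; its difference was 0.45 ± 0.19 (SE, 1.37-fold, limma adjusted p = 0.131). H2-Eb1 was 9.65, 10.13 and 9.92 against 10.03, 10.44 and 10.19, a difference of 0.32 ± 0.13 (SE, 1.25-fold, limma adjusted p = 0.105). The chains thus differed from array to array within a mutant group by more than the groups differed.

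Cd74 gave the widest interval for its size. It was 10.78, 11.27 and 11.05 in the mutant controls and 11.08, 11.64 and 11.30 in the knockouts, with a difference of 0.31 ± 0.16 (SE, 95% interval -0.05 to 0.67, limma adjusted p = 0.218). H2-DMa was the one gene of the 6 whose mutant groups did not overlap, where 21.7% of all genes tested lay apart with the knockouts higher. It was 8.50, 8.97 and 8.96 in the controls against 9.11, 9.33 and 9.18 in the knockouts, a difference of 0.40 ± 0.13 (SE, limma adjusted p = 0.0636). Ciita was 7.74, 7.77 and 7.63 against 7.72, 7.88 and 7.99, and its difference of 0.15 ± 0.07 (SE, limma adjusted p = 0.14) was nearly that seen with wild-type Fbn1.

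One array bears on these calls. Mutant knockout 1 had the lowest value of its group for all 6 genes. Without it, H2-Ab1 rose by 0.63 (limma adjusted p = 0.0406) and Ciita by 0.22 (limma adjusted p = 0.045), which makes 2 of the 6 called. Before adjustment, 5 of the 6 had p under 0.05, with Cd74 at 0.0857.

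**Figure D2:**
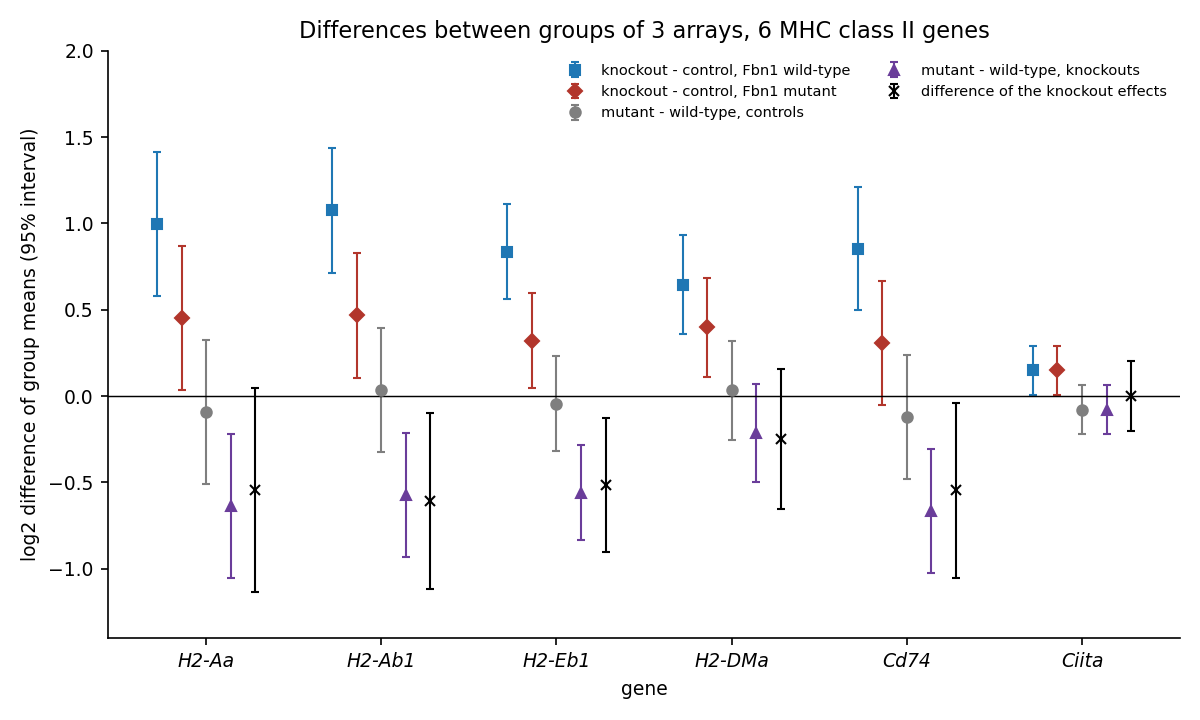
Log2 differences of the 6 genes in 5 contrasts, with 95% intervals from limma; the horizontal line marks 0. The intervals of the wild-type knockout comparison lie above 0 for all 6 genes, from 0.15 for Ciita to 1.08 for H2-Ab1, and those between the control groups all span 0.

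Whether the Fbn1 mutation alone moved these genes was read from the 2 control groups. None of the 6 differed by the test, where 6.49% of all genes tested did in either direction, and the control groups overlapped for all 6, where 28.1% of all genes tested had groups apart. The differences, mutant minus wild-type, ran from -0.12 for Cd74 (95% interval -0.48 to 0.24) to 0.04 for H2-Ab1 (-0.33 to 0.40), and the lowest limma adjusted p was 0.494, for Ciita, with an unadjusted p of 0.251, so that none of the 6 had an unadjusted p under 0.05. The intervals of H2-Aa (-0.51 to 0.33) and Cd74 leave room for changes of up to a log2 value of about -0.5, so small differences were not detectable with 3 arrays a group. The sign of 5 of the 6 differences turned when single arrays were left out, as given in the part on processing.

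The knockout groups differed more. Cd74 was 0.67 ± 0.16 (log2, SE) lower in the mutant knockouts than in the wild-type knockouts, at 0.63 of their level (limma adjusted p = 0.0336), and H2-Eb1 was 0.56 ± 0.13 (SE) lower, at 0.679 of their level (limma adjusted p = 0.0217). These 2 of the 6 fell, where 3.16% of all genes tested fell. H2-Aa and H2-Ab1 had differences of -0.63 ± 0.19 and -0.57 ± 0.17 (SE), with limma adjusted p = 0.0749 and 0.0647. For all 4 genes the highest mutant knockout array lay below the lowest wild-type knockout array, as it did for 11.9% of all genes tested. H2-DMa (-0.21 ± 0.13) and Ciita (-0.08 ± 0.07) had overlapping groups and limma adjusted p of 0.404 and 0.555.

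Both calls were lost on leaving out any 1 of several arrays, although without wild-type knockout 1 the differences were no smaller. H2-Eb1 missed the threshold without wild-type knockout 1 (-0.57, limma adjusted p = 0.0646), wild-type knockout 3 (-0.49, 0.0877), mutant knockout 1 (-0.47, 0.0988) or mutant knockout 3 (-0.54, 0.0582). Cd74 did so without the same arrays, with differences of -0.72, -0.53, -0.54 and -0.65 and limma adjusted p of 0.0694, 0.127, 0.135 and 0.0809. Without mutant knockout 2, H2-Aa passed as well, at -0.80 (limma adjusted p = 0.0444).

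The difference between the 2 knockout effects was tested as an interaction, and none of the 6 genes passed (1.48% of all genes tested did). The effect in the mutant minus that in the wild-type was -0.61 ± 0.24 for H2-Ab1 (SE, 95% interval -1.12 to -0.10, limma adjusted p = 0.22) and -0.51 ± 0.18 for H2-Eb1 (-0.90 to -0.13, adjusted p = 0.176). It was -0.55 ± 0.23 for Cd74 (-1.05 to -0.04, adjusted p = 0.266), -0.54 ± 0.27 for H2-Aa (-1.14 to 0.05, adjusted p = 0.338) and -0.25 ± 0.19 for H2-DMa (-0.65 to 0.16, adjusted p = 0.526). H2-Ab1, H2-Eb1 and Cd74 had unadjusted p of 0.0231, 0.0132 and 0.0364. For Ciita the estimate was -0.00 with an interval of -0.20 to 0.20, so that its knockout effects, of 0.15 in each Fbn1 background, were not shown to differ or to be alike beyond that interval. These 5 contrasts share their groups, so that, for example, the wild-type knockout arrays enter 3 of them and their values are not independent.

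The arrays of a group kept nearly the same order from gene to gene. Wild-type knockout 3 was the highest of its group and mutant control 2 the highest of its group for all 6 genes. Mutant knockout 1 was the lowest of its group for all 6, and mutant knockout 2 the highest for all but Ciita. Wild-type control 2 was the highest and wild-type control 3 the lowest of the wild-type controls for the other 5 genes, while for Ciita these 2 arrays stood the other way round. H2-Aa, H2-Ab1, H2-Eb1, H2-DMa and Cd74 therefore do not count as separate observations of a condition. Their deviations from the group means correlated with each other at r of 0.811 to 0.972 over the 12 arrays, and those of Ciita with the other 5 genes at r of -0.026 to 0.397, as a description over shared arrays.

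The other genes of the class II pathway include the proteases that cut the invariant chain, the H2-O subunits that hold H2-DM back, the ubiquitin ligases that remove class II molecules from the surface, and tetraspanins that sit beside them. Of 21 listed symbols 16 were on the array and 14 were tested; 6 rose and none fell in the wild-type knockouts, and 3 rose and 1 fell in the mutant knockouts. Their median differences were 0.09 and 0.01, so most of the list did not move with the 6 genes. Leaving out any 1 array gave 5 or 6 calls in the wild-type comparison.

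Ctss, cathepsin S, makes the last cut of the invariant chain in antigen-presenting cells. It was 9.27, 9.37 and 9.24 in the wild-type controls, 10.86, 10.40 and 10.65 in the wild-type knockouts, 9.45, 9.48 and 9.54 in the mutant controls and 10.04, 9.93 and 9.86 in the mutant knockouts. All 4 pairs of groups compared were apart. It rose by 1.35 ± 0.09 (SE, limma adjusted p = 2.91e-06) with wild-type Fbn1 and by 0.45 ± 0.09 (adjusted p = 0.0093) in the mutant, and the 2 effects differed by -0.90 (adjusted p = 0.00581). Unlike Cd74, the chain it cuts, Ctss thus passed the test of the difference itself; the mutant call was lost, at nearly the same size (0.43, adjusted p = 0.0513), without mutant control 3 and mutant knockout 1, the 2 arrays of highest Ucp1, a brown fat gene, at 8.57 and 8.21 against 6.75 to 7.30 on the others.

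Other proteases rose less. Lgmn, an asparagine endopeptidase of the endosome, rose by 0.29 ± 0.06 (SE, limma adjusted p = 0.00411) in the wild-type knockouts and had a difference of -0.09 (adjusted p = 0.304) in the mutant. Ctsh, an endosomal aminopeptidase, rose by 0.31 ± 0.07 (SE, adjusted p = 0.00663) with wild-type Fbn1. The tetraspanins Cd37 and Cd82 rose by 0.51 ± 0.10 and 0.41 ± 0.06 (SE, adjusted p = 0.00308 and 0.000816), and both rose in the mutant as well, Cd82 by 0.50 (adjusted p = 0.000496) and Cd37 by 0.36 (adjusted p = 0.0293). The mutant call of Cd37 was lost without mutant control 1 or 2 or any 1 of the mutant knockouts (adjusted p up to 0.115). Of the genes that counter class II display, named here after their values were seen, H2-Oa (-0.10, adjusted p = 0.429) and H2-Ob (0.03, adjusted p = 0.704) did not pass the test in the wild-type knockouts. The ligase gene Marchf1 also rose by 0.22 ± 0.06 (SE, adjusted p = 0.0182) there, a call lost without wild-type knockout 3 (adjusted p = 0.0828), and Marchf8 fell by 0.25 ± 0.05 on the log2 scale (adjusted p = 0.00438) in the mutant knockouts. H2-Ea and H2-Eb2 were below the filter and were not tested, and the partner subunits H2-DMb1 and H2-DMb2 share a probe set annotated to both, which was not used.

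The factors that bind class II promoters or switch Ciita on showed no common direction. Of 20 listed genes 18 were tested, and in the wild-type knockouts 3 rose and 2 fell, with a median of -0.05. The largest rise was that of Spi1, PU.1, a factor of myeloid cells and B cells: it was 8.69, 8.79 and 9.17 in the controls and 9.88, 9.72 and 9.67 in the knockouts. The groups did not overlap, and it rose by 0.87 ± 0.12 (SE, limma adjusted p = 0.000285), and by 0.44 (adjusted p = 0.028) in the mutant. The mutant call was lost when any 1 of mutant controls 1 and 2 and the 3 mutant knockouts was left out (adjusted p up to 0.0987), with values of 0.34 to 0.48.

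The remaining calls of this list were small. Irf8, an interferon regulatory factor of myeloid cells, rose by 0.32 (limma adjusted p = 0.0221) and Ifngr1, a chain of the interferon-γ receptor, by 0.22 (adjusted p = 0.0354), while Sp1 and Creb1, general DNA-binding factors, fell by 0.22 and 0.14 on the log2 scale (adjusted p = 0.0189 and 0.0491). The call of Creb1 was lost under 19 of 23 alternatives, with each of the 12 arrays left out among them. Calls of the list in this comparison went down to 1, that of Spi1, without wild-type knockout 1, to 2 without wild-type control 2 or wild-type knockout 3, and to 3 without wild-type control 1 or 3. Rfx5, a subunit of the factor bound at the X box, had differences of -0.06 (adjusted p = 0.556) and -0.13 (adjusted p = 0.156), and Ifng, interferon-γ, the main inducer of Ciita in cells other than antigen-presenting cells, of -0.05 (adjusted p = 0.773) and -0.01 (adjusted p = 0.942); both were named after their values were seen. In the mutant knockouts Ifngr2, the other receptor chain, fell by 0.27 on the log2 scale (adjusted p = 0.0166), also named after its value was seen; the call was lost without mutant control 1 or 2 or mutant knockout 2.

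Class I presentation, which shows peptides from inside the cell to cytotoxic T cells, was set beside class II. Of 27 listed genes 19 were tested; 8 rose and none fell in the wild-type knockouts, and 3 rose in the mutant knockouts, with medians of 0.20 and 0.14. H2-M3, which presents bacterial peptides, rose by 0.38 ± 0.06 (SE, limma adjusted p = 0.000704) with wild-type Fbn1 and stood at -0.00 in the mutant. The immunoproteasome subunit Psmb9 and its activator Psme2 rose by 0.36 ± 0.05 and 0.34 (adjusted p = 0.00072 and 0.0016). Nlrc5, the class I counterpart of Ciita, rose by 0.22 (adjusted p = 0.0328). That call was lost under 7 of 23 alternatives. Among them were the mean of its probe sets, and leaving out wild-type control 2 or 3 or wild-type knockout 1 or 3. The mutant calls were the proteasome genes Psmb9, Psmb10 and Psme1, named after their values were seen. All 3 were lost when mutant control 3 and mutant knockout 1 were both left out, Psmb9 also without mutant control 1 or mutant knockout 1 or 2, and Psmb10 also without mutant control 1 or 2 or mutant knockout 2 (adjusted p up to 0.0996). The wild-type count of 8 fell to 3 when wild-type controls 2 or 3 or wild-type knockouts 1 or 3 were left out, to 4 without wild-type control 1, and to 5 without mutant control 3 or mutant knockout 1.

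Costimulatory molecules give the second signal that a T cell needs beside class II and peptide, and checkpoint molecules restrain it. Of 12 listed genes 10 were tested, and 6 (Cd86, Vsig4, Cd40, Havcr2, Cd83 and Vsir) rose and none fell in the wild-type knockouts (median 0.41), against 2 in the mutant knockouts (median 0.16). Cd86, a ligand of CD28, was 7.56, 7.39 and 7.48 in the wild-type controls and 8.03, 8.01 and 8.17 in the knockouts. These groups were well apart, and it rose by 0.59 ± 0.07 (SE, limma adjusted p = 0.000114). In the mutant it was 7.63, 7.69 and 7.83 against 7.70, 7.83 and 7.76, which overlap (0.05, adjusted p = 0.646), and the 2 effects differed by -0.55 (adjusted p = 0.0162, or 0.068 without the 2 arrays of highest Ucp1). Cd40, through which T cells activate presenting cells, and Vsig4, a complement receptor of macrophages that restrains T cells, rose in both knockout groups: Cd40 by 0.49 and 0.39 (adjusted p = 0.0019 and 0.0133) and Vsig4 by 1.78 and 1.79 (adjusted p = 0.000956 and 0.00218).

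**Figure D3:**
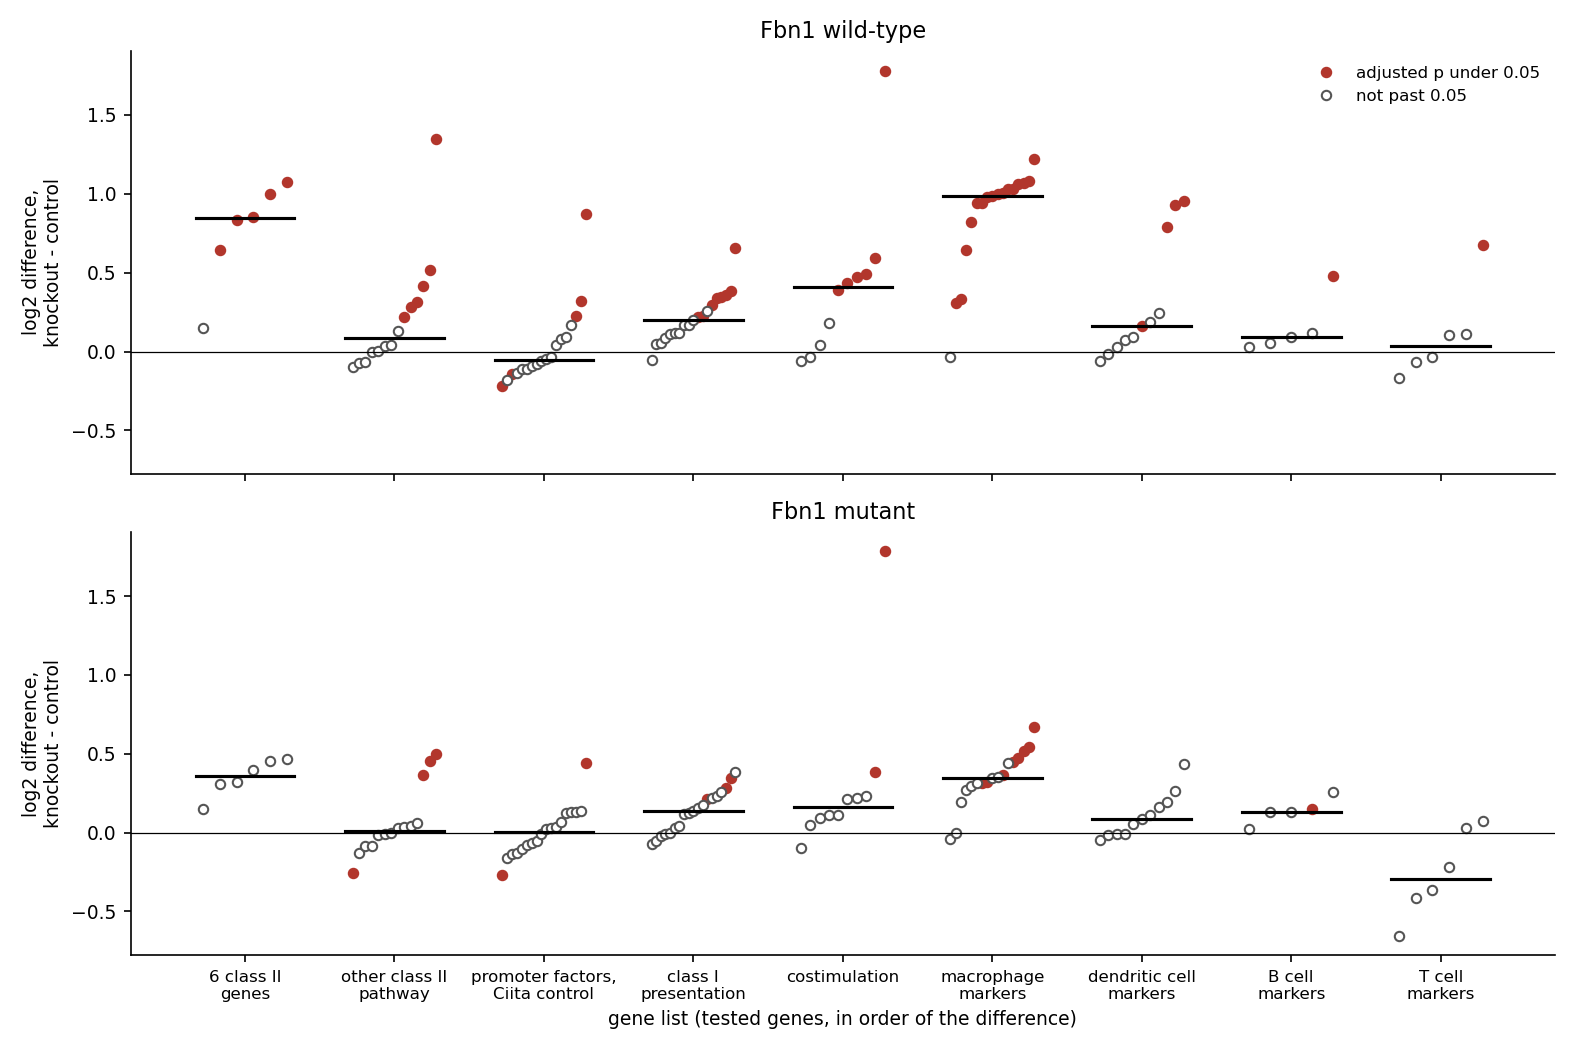
Log2 knockout-minus-control differences of single genes, grouped by list, in the Fbn1 wild-type and in the Fbn1 mutant; each point is a gene tested, filled where its limma adjusted p is under 0.05, and bars mark list medians. The medians of the 6 class II genes (0.85 and 0.36) lie nearer to those of the macrophage markers (0.98 and 0.35) than to those of the other class II pathway genes (0.09 and 0.01).

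Markers of macrophages, which can carry class II in the aorta, moved with these genes in both knockout comparisons. Of 18 macrophage markers 17 were tested, and 16 rose in the wild-type knockouts and 8 in the mutant knockouts, with medians of 0.98 and 0.35; 9 were lower in the mutant than in the wild-type knockouts, a count of 4 without wild-type knockout 1 or 3 or mutant knockout 1 and of 5 without mutant knockout 2. Between the control groups, the macrophage markers had a median of 0.15, mutant minus wild-type, with Adgre1 at 0.34 (limma adjusted p = 0.031) and Fcgr3, an Fc receptor, at 0.29 (adjusted p = 0.0289), while the 6 class II genes had a median of -0.06 and no call. Both of those calls were lost without any 1 of wild-type controls 1 and 2 and mutant controls 2 and 3. The markers' summed intensity was 14.46 to 14.59 (log2) in the wild-type controls, 15.23 to 15.33 in the wild-type knockouts, 14.51 to 14.79 in the mutant controls and 14.92 to 14.96 in the mutant knockouts. Adgre1, the macrophage antigen F4/80, rose by 1.22 ± 0.08 (SE, limma adjusted p = 2.91e-06) and 0.36 (adjusted p = 0.0154), the latter lost without mutant control 1 or mutant knockout 2. The 8 mutant calls went down to 5 without mutant control 1, mutant control 2 or mutant knockout 2. The part of these cells in the class II values was not tested.

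The order of arrays within a group was that of the macrophage markers in the wild-type knockouts alone. The mean of the 6 class II genes, each centred on its own mean, was 0.43, 0.37 and 0.71 on wild-type knockouts 1, 2 and 3, where the macrophage markers gave 0.50, 0.40 and 0.51. In the mutant knockouts the class II mean was -0.16, 0.26 and 0.06, a spread wider than that of the macrophage markers, at 0.10, 0.10 and 0.14. In the mutant controls class II was highest on array 2, at -0.09 against -0.54 and -0.27, and the macrophage markers were highest on array 3, at -0.05 against -0.35 and -0.28. On wild-type controls 1, 2 and 3 class II was -0.25, -0.13 and -0.39, and the macrophage markers were -0.44, -0.37 and -0.26. The array lowest in class II there was thus the highest in macrophage markers.

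**Figure D4:**
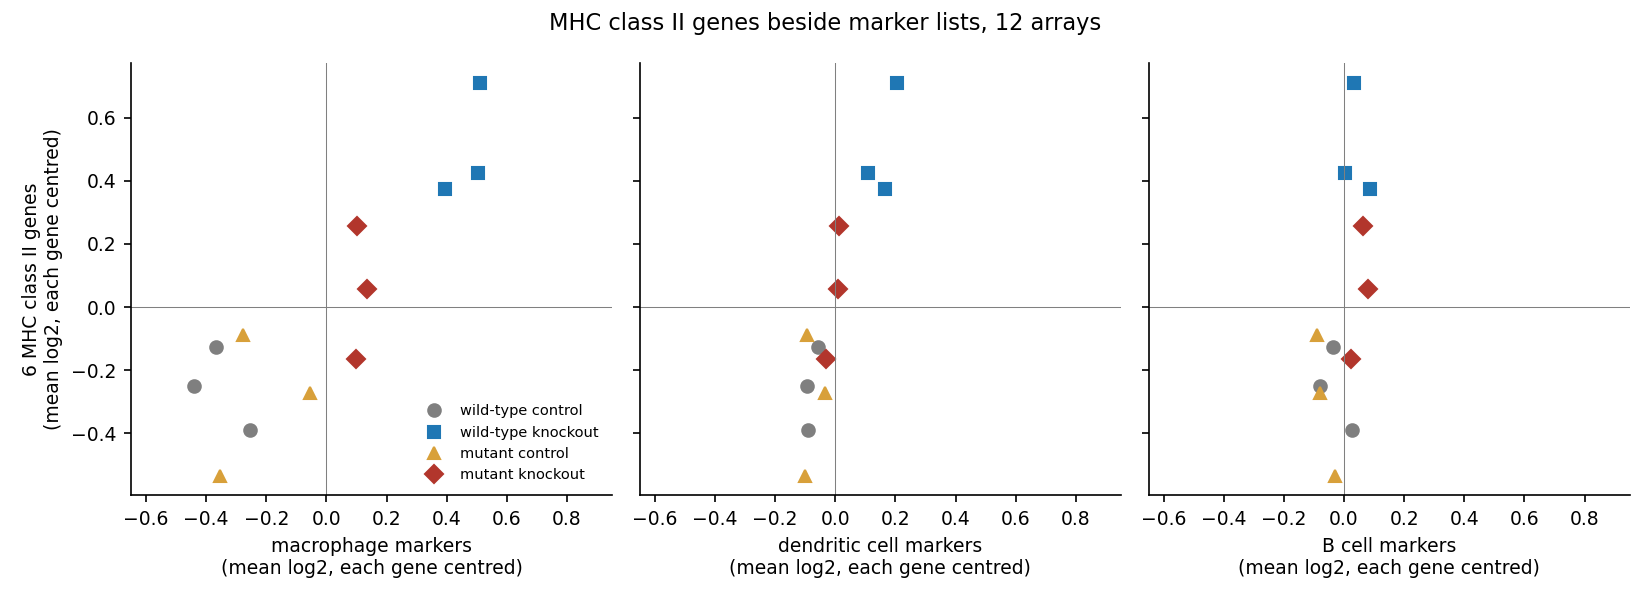
Mean centred log2 level of the 6 class II genes on each array, set beside that of macrophage, dendritic cell and B cell markers; points are arrays, coloured by group. Class II and macrophage markers are both highest in the wild-type knockouts, and within the mutant knockouts class II ranges from -0.16 to 0.26 while the macrophage markers stay between 0.10 and 0.14.

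Dendritic cell markers moved in part. Of 15 listed genes 11 were tested, and 4 rose and none fell in the wild-type knockouts (median 0.16), with none called by limma in the mutant knockouts (median 0.09; 2 had an unadjusted p under 0.05). Cd209a, a lectin of monocyte-derived dendritic cells, rose by 0.79 ± 0.09 (SE, limma adjusted p = 0.000148), and the lectins Mgl2 and Clec10a, which macrophages also carry, rose by 0.95 ± 0.16 and 0.93 (adjusted p = 0.00134 and 0.00152). Flt3, the receptor for the growth factor of dendritic cell precursors, was the last of the 4, at 0.16 (adjusted p = 0.0477), a call lost under 19 of 22 alternatives, 11 of them with 1 array left out. Cd209a and Clec10a were lower in the mutant than in the wild-type knockouts, with differences of -0.50 and -0.62 (adjusted p = 0.0088 and 0.0386); the call of Clec10a was lost without any 1 of wild-type control 2, wild-type knockouts 2 and 3, mutant control 2 and the 3 mutant knockouts (adjusted p up to 0.143). The summed intensity of the list was 12.16 to 12.25 in the wild-type controls, 12.36 to 12.54 in the wild-type knockouts, 12.12 to 12.33 in the mutant controls and 12.22 to 12.35 in the mutant knockouts (log2). Over the 12 arrays, the class II genes other than Ciita correlated with the dendritic cell list at r of 0.883 to 0.929. With the macrophage list they correlated at 0.815 to 0.887. Taken as deviations from group means, these were 0.445 to 0.745 and 0.134 to 0.283, as a description over shared arrays. Other lists gave deviation values of like size, so this was not particular to dendritic cell markers. With the class I list they were 0.388 to 0.636, and with the smooth muscle markers -0.719 to -0.525. The part of dendritic cells in the class II values was not tested.

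B cell and T cell markers gave few calls. Of 11 B cell markers 5 were tested, and the defining markers Ms4a1 and Cd79a were below the filter. Bank1 alone rose in the wild-type knockouts, by 0.48 (limma adjusted p = 0.0183), a call lost without wild-type control 1 or 2 or wild-type knockout 2 or 3. In the mutant knockouts Cd79b alone was called, upward, a call lost under 19 of 22 alternatives. All 5 tested B cell markers had positive differences in both comparisons, with medians of 0.09 and 0.13. Of 12 T cell markers 6 were tested, and 1, Thy1, a surface protein also of fibroblasts and nerves, rose in the wild-type knockouts, by 0.67 (adjusted p = 0.0015). In the mutant knockouts none was called, with a median of -0.29, and 3 fell with an unadjusted limma p under 0.05. The mean of the 11 T cell genes on the array, each centred, was -0.04, -0.04 and 0.48 on mutant controls 1, 2 and 3. On mutant knockouts 1, 2 and 3 it was -0.06, -0.11 and 0.06, so the high control level was that of mutant control 3 alone. Endothelial markers moved too: of 10 tested, 5 (Cdh5, Tie1, Nos3, Plvap and Vwf) rose and Erg fell in each knockout comparison, with medians of 0.53 and 0.39. The mutant calls of Cdh5, Tie1 and Nos3 were lost without mutant control 1 or 2 or mutant knockout 1 or 2, that of Nos3 also without mutant knockout 3, that of Vwf without mutant control 2 and that of Erg without mutant control 1; the wild-type call of Erg was lost without wild-type control 2 or 3 or wild-type knockout 1 or 3. Of 8 smooth muscle markers, Smtn and Lmod1 fell in the wild-type knockouts and Myocd in the mutant knockouts, with medians of -0.06 and 0.00. The calls of Smtn and Lmod1 were lost without wild-type control 2 or 3 or wild-type knockout 1 or 3, that of Lmod1 also without mutant control 3 or mutant knockout 1, and that of Myocd without mutant control 1 or 2 or mutant knockout 2.

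Fibroblast and fat markers moved as well. Of 6 fibroblast markers tested, Lum, Dpt, Pi16 and Col1a1, which encode matrix proteins or, for Pi16, a protein of adventitial fibroblasts, rose in the wild-type knockouts (median 0.31). Lum rose by 0.51 (limma adjusted p = 0.000743) and Col1a1 by 0.34 (adjusted p = 0.00493), while the calls of Dpt and Pi16 were lost without wild-type control 1 or 2 or wild-type knockout 1 or 3, that of Dpt also without mutant control 2 and that of Pi16 without wild-type knockout 2. In the mutant knockouts Pi16 alone rose (0.41, adjusted p = 0.0432; lost under 10 of 23 alternatives), and the list had a median of -0.10. Lum was lower in the mutant than in the wild-type knockouts (-0.45, adjusted p = 0.00519), and Col1a1 was higher in the mutant than in the wild-type controls (0.68, adjusted p = 0.000333). Of 5 adipocyte markers tested, Cidea, a lipid droplet protein of brown fat, rose in both knockout groups, by 0.74 and 0.96 (adjusted p = 0.00682 and 0.00282). The summed intensity of the fibroblast list was 15.35 to 15.51 (log2) in the wild-type controls, 15.63 to 15.71 in the wild-type knockouts, 15.57 to 15.60 in the mutant controls and 15.42 to 15.57 in the mutant knockouts. The part of these cells in the class II values was not tested.

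The genes most like the mean of the 6 over the 12 arrays, the 6 themselves left out, were Azin1 (Pearson r = 0.946), Rab7b (0.943), Sema7a (0.940), Ebp (0.938), Pde8a (0.936), Fcgr2b (0.915), Lpcat2 (0.913), Cd55 (0.909), 1700016K19Rik (0.907) and Car13 (0.904). Rab7b is a small GTPase of late endosomes and Fcgr2b the inhibitory Fc receptor. These coefficients are a description: they hold the differences between the groups, and all genes share the same arrays. Taken as deviations from the group means, they were between 0.396 for Car13 and 0.871 for Pde8a. For Cd74 alone the nearest were Cd55 (0.923), Lpcat2 (0.915), Sema7a (0.914), Rab7b (0.914) and Azin1 (0.912), all 5 of which are in the list above.

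Ciita had other neighbours. Its 5 nearest genes were 4933427E11Rik (r = 0.974), Col6a5 (0.932), Rassf10 (0.918), F2rl2 (0.907) and Gper1 (0.891), and none was among the 10 of the whole set. Taken as deviations from the group means, these were between 0.764 for Gper1 and 0.945 for 4933427E11Rik, again as a description. The 5 genes had low mean levels, from log2 7.38 for F2rl2, near the filter, to 8.38 for Col6a5. The spread of Ciita was narrow, with group SDs from 0.010 in the wild-type knockouts to 0.138 in the mutant knockouts, against 0.113 to 0.336 for the other 5 class II genes. In the mutant knockouts its highest array was 3, not 2, the one departure there from the order of the other genes.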

How the data were processed

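The values are the intensities the authors deposited, on a linear scale; per the submitters' processing notes they were made with Partek 6.4 and RMA, which corrects background, quantile normalizes and summarises probe sets. The genome build is not given in the sources used here. Log2 of the deposited intensity was taken with no pseudocount. Of 35556 probe sets, 21789 were annotated to 1 symbol, 1621 to several and 12146 to none. A gene was read from its probe set of highest mean. Genes under the 25th percentile of mean level (log2 7.31) were not tested. All 12 arrays entered 1 fit in R 4.3.3 with limma 3.58.1 (lmFit and eBayes, a coefficient for each of 4 groups), 5 contrasts, and Benjamini-Hochberg adjustment over 14944 genes; a gene was called at adjusted p under 0.05. Arrays give no read depth, and precision is set by 3 arrays a group. The program was tested on simulated data. The 6 genes and all lists were chosen with earlier results of these data known. Of each other list, the 5 genes of smallest p in the wild-type knockout comparison could be named, and others only where the text says so or gives all calls of a small count. Alternatives of 12 kinds were run.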

Additional observations from a re-analysis of the deposited data

Results flagged for a closer look

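Single arrays were not tested as outliers, since each group held only 3. None of the 6 class II genes had knockout effects that differed between the Fbn1 backgrounds by the interaction test. The estimates of H2-Ab1, H2-Eb1, Cd74 and H2-Aa, at -0.61, -0.51, -0.55 and -0.54, were within the range of the called genes below. Those of H2-DMa and Ciita were -0.25 and -0.00. Of the listed genes set beside the 6, 13 passed that test, each with a lower knockout effect in the mutant. They were 2 of 14 other class II pathway genes tested, 1 of 19 class I genes and 1 of 10 costimulation and checkpoint genes. The others were 6 of 17 macrophage, 1 of 11 dendritic cell and 2 of 6 fibroblast markers. Of all genes tested, 1.08% had such a call in that direction. The difference of effects, mutant minus wild-type on the log2 scale, was -0.90 for the invariant chain protease Ctss (limma adjusted p = 0.00581) and -0.37 for Lgmn (adjusted p = 0.0423). It was -0.39 for the class I gene H2-M3 (adjusted p = 0.0396) and -0.55 for the costimulatory gene Cd86 (adjusted p = 0.0162). Among macrophage markers it was -0.86 for Adgre1, -0.75 for Fcgr3, -0.66 for Csf1r, -0.58 for Laptm5, -0.56 for Itgam and -0.34 for Ctsc, with adjusted p from 0.00309 for Fcgr3 to 0.0386 for Ctsc. It was -0.68 for the dendritic cell marker Cd209a (adjusted p = 0.0269), and among fibroblast markers -0.63 for Lum (adjusted p = 0.0144) and -0.57 for Col1a1 (adjusted p = 0.0155). The interaction calls of Ctss, Adgre1, Fcgr3 and Col1a1 held under each of the 22 alternatives that gave a value, and that of Itgam under each of 21. Those of Lgmn, Ctsc, Laptm5, Csf1r and Lum were lost under 16, 14, 10, 2 and 1 of 22, and those of H2-M3, Cd209a and Cd86 under 15, 8 and 1 of 21. Csf1r was lost without wild-type knockout 1 or 3, and Lum and Cd86 without the 2 arrays of highest Ucp1.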

How the results depend on the processing

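In the wild-type knockouts H2-Aa, H2-Ab1, H2-Eb1, H2-DMa and Cd74 kept their calls under all 23 alternatives, with ranges of 0.82 to 1.13, 0.95 to 1.18, 0.76 to 0.90, 0.54 to 0.74 and 0.72 to 0.97 on the log2 scale and a highest limma adjusted p of 0.0252. Ciita stayed uncalled in the 22 that tested it (0.13 to 0.16); a filter at the median leaves it out. Over all comparisons, 644 of 679 values of the 6 genes kept their direction and side of the threshold, 11 lost a call, 7 gained one and 17 changed sign. The cause of these changes was not tested. Tgfbr2 ranged from -0.12 to -0.04 and from 0.00 to 0.07. No alternative moved the median of all genes by more than 0.04.

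The labels do not say whether arrays of the same replicate number were paired. Of 18 same-numbered pairs, 3 correlated above 0.1 (range -0.217 to 0.24), and 4 of 12 arrays were most like their own number. With 3 arrays a group, these values cannot settle whether the numbers pair the arrays. With the replicate number as a block, 2595, 1796, 867, 841 and 199 genes were called in the 5 comparisons, against 2814, 2008, 970, 890 and 221 without it; H2-DMa was called in the mutant knockouts (1 of the 6, adjusted p = 0.0418) and H2-Ab1 between the knockout groups (adjusted p = 0.04).

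Between the knockout groups, with 2 of the 6 called, robust eBayes kept 1 (Cd74 adjusted p = 0.0548), array weights gave 4 (H2-Aa -0.70 and H2-Ab1 -0.67 added), and leaving out the 2 arrays of highest Ucp1 gave 0 (H2-Eb1 -0.47, Cd74 -0.54). Leaving out single arrays gave 0 to 3 called there and 0 to 2 in the mutant knockouts. Without the Ucp1 arrays, chosen as those of highest Ucp1, H2-DMa was -0.039 between controls and the difference of effects for Ciita was 0.031; with array weights H2-Eb1 was 0.0022 between controls. Leaving out single arrays, the control differences ranged from -0.24 to 0.092 (H2-Aa), -0.11 to 0.17 (H2-Ab1), -0.16 to 0.082 (H2-Eb1), -0.048 to 0.19 (H2-DMa) and -0.24 to 0.0048 (Cd74), and the difference of effects for Ciita from -0.064 to 0.073.

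Array weights moved the counts of all genes called to 3687 in the mutant knockouts, 1568 between controls, 1687 between knockouts and 469 for the difference of effects. A fit on the compared groups alone gave 1261 in the mutant knockouts and 480 between controls, and leaving out the Ucp1 arrays gave 1083 in the mutant knockouts and 406 between knockouts. Leaving out single arrays gave 1831 to 2990 in the wild-type knockouts, lowest without wild-type knockout 3 (1871 without wild-type knockout 1), 894 to 2151 in the mutant knockouts, 349 to 1073 between controls, 377 to 1021 between knockouts and 106 to 202 for the difference of effects.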
